A study of Mus musculus with 8 samples.

Results

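Levels of 35 genes of the ATF4 and unfolded protein responses were described in mouse embryonic stem (ES) cells after inhibition of the histone methyltransferase MLL1, after deletion of its gene, and after the kinase inhibitor mixture known as 2i. The genes form a set of named members: transcription factors around ATF4, sensors of stress in the endoplasmic reticulum (ER), enzymes of serine and other amino acid synthesis, stress effectors and ER chaperones. Members were found by symbol, and all 35 were present among the 50060 loci of the expression table that carried a gene name. A symbol listed at more than 1 locus was read at the locus with the highest mean level, which concerned Herpud1.

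RNA was sequenced from 8 libraries, 2 in each of 4 groups, and the deposited tables hold 1 combined column per group. All groups were blastocyst-derived C57BL/6J ES cells of genotype Mll1fl/fl that carried Cre-ER TM, a recombinase active only with tamoxifen, and were grown with LIF on mouse embryonic fibroblast (MEF) feeder cells. The untreated group received no agent, the MM401 group 100 µM of the MLL1 inhibitor MM401, the Mll1_deleted group 5 µM of 4-hydroxytamoxifen (4-OHT), and the 2i group 1 µM of the MEK inhibitor PD03259010 with 3 µM of the GSK3 inhibitor CHIR99021, each for 5 days. MM401 and 4-OHT were given in serum medium and 2i in medium with knockout serum replacement, and within the 2i group drug and medium cannot be told apart. For untreated cells the sources used here give no medium, and no vehicle-treated group was analysed. The labels do not say if the libraries came from more than 1 clone.

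The integrated stress response works through phosphorylation of the translation factor eIF2 by kinases that sense amino acid shortage, heme shortage, viral RNA or unfolded protein in the ER. Phosphorylated eIF2 lowers general translation and favours translation of Atf4, whose product activates genes of amino acid synthesis, amino acid transport and tRNA charging, and, when the stress lasts, Ddit3 (CHOP). The unfolded protein response adds a pair of further arms, IRE1 with XBP1 and ATF6, which raise ER chaperones and degradation factors. ATF4 is itself controlled largely through translation, so the level of its mRNA is not its activity.

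Because 1 column per group leaves no spread between libraries, no value below carries an SD, an n or a test. Values are FPKM (fragments per kilobase of transcript, scaled to sequencing depth), square brackets hold the authors' interval, and ratios are log2 of FPKM + 1 in one group over FPKM + 1 in another. A locus with an FPKM of at least 1 in either group was compared. It was called higher or lower at a log2 ratio of at least 1 in size, a 2-fold difference on that scale, and calls were also read for whether the authors' intervals were separate. All 35 members reached the FPKM minimum in all 6 comparisons, and 33 had an FPKM of at least 10 in some group. A difference in a culture of several cell types can come from fewer cells of a type or from less RNA per cell, and these cannot be told apart here.

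Total estimated counts were between 76501619 and 90728747 per group, lowest in MM401 and highest in 2i. Kmt2a, which encodes MLL1, had an FPKM of 15.5 in untreated, 14.6 in MM401, 11.8 in Mll1_deleted cells and 8.72 in 2i. It is a whole-gene value, which a deleted exon need not lower, and so no measure of the deletion. All 10 ES cell markers were present in every group, with summed FPKM of 9888, 10325, 11611 and 8849 in the order untreated, MM401, Mll1_deleted and 2i. Dppa5a made up most of that sum, at 7220 in untreated and 8828 in MM401 cells, and the other 9 markers summed to 2668, 1497, 3228 and 3115. In MM401 against untreated cells 4 of the 10 were lower with separate intervals, namely Tdh (159 to 46.6, −1.74), Utf1 (332 to 103, −1.68), Pou5f1 (874 to 294, −1.57) and Tdgf1 (337 to 114, −1.56). In all, 7 of the 10 were below 0 and 3 above. Fbxo15 was among those above, with separate intervals (161 to 249, 0.63). All 14 fibroblast markers were present too, with sums of 2166, 2696, 1662 and 4691 in the same order, so that sum was highest in 2i cells and lowest in Mll1_deleted cells. Col3a1 gave 1884 of the 2i sum, with an interval of 0 to 4039. Without the highest marker of each group the sums were 1528, 2019, 998 and 2807. The part of these marker differences in the ratios below was not tested. Of all compared loci, 7.03% were called higher and 6.08% lower in MM401 against untreated cells, 3.02% and 3.66% in Mll1_deleted, and 2.92% and 4.16% in 2i. Counts of members and of listed genes are read against these shares. Members and lists were chosen with earlier results of these data known, so an excess over these shares is a description and no independent test.

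The genes differ in their matches to known control elements near their start sites, and a few promoters are shown to make this visible. In mammals ATF4 is known to bind, with C/EBP partners, an element with the core TGATGNAA, and ATF6 acts on the ER stress response element, which joins CCAAT and CCACG across a fixed gap. Both were searched on both strands in windows of 300 bases, from 250 before to 50 after the start, taken from RefSeq (GRCm38.p6), which had a window for 33 of the 35 members. In the sequences below, written 5′ to 3′ on the strand of the gene, capitals mark a match to the ATF4 core in Asns, Chac1, Trib3 and Herpud1 and to the ER element in Hspa5 and Calr. Asns is the well-studied amino acid response gene, Chac1 and Trib3 carried large differences between groups, Herpud1 is an ER degradation gene with the ATF4 core, and Hspa5 and Calr are ER chaperones. Ddit3, which was higher in MM401 where Chac1 was lower, is shown with no match in its window to the forms searched. Read on the opposite strand, its window does join CCAAT across the same gap to GCACG in place of CCACG. Ddit3 is thus no example of a promoter without an ER element.
The windows lie at chr6:7693160-7693459 (minus strand, Asns), chr2:119350992-119351291 (plus, Chac1), chr2:152344011-152344310 (minus, Trib3), chr8:94386179-94386478 (plus, Herpud1), chr2:34771840-34772139 (plus, Hspa5), chr8:84846882-84847181 (minus, Calr) and chr10:127290543-127290842 (plus, Ddit3).
Asns: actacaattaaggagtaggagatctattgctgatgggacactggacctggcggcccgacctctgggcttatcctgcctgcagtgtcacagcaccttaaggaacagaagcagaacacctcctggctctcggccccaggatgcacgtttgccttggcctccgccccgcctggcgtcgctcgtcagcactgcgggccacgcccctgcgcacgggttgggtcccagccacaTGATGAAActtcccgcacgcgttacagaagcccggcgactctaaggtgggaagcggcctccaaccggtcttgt
Chac1: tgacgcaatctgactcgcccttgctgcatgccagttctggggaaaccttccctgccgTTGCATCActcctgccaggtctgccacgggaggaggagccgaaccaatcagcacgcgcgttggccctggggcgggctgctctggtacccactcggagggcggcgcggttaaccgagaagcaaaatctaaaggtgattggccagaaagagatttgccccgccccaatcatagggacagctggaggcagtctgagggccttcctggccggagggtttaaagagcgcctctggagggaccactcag
Trib3: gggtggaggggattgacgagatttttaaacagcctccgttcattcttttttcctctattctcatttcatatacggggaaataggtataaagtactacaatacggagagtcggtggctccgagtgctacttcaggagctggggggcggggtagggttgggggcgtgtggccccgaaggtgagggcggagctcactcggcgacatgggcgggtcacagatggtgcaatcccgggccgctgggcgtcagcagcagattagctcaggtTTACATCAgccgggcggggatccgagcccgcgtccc
Herpud1: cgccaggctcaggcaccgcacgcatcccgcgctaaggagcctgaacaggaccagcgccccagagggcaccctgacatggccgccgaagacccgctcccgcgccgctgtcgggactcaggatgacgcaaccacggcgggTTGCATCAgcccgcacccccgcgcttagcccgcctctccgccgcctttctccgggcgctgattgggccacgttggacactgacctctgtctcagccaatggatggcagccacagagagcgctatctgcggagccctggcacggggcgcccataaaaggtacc
Hspa5: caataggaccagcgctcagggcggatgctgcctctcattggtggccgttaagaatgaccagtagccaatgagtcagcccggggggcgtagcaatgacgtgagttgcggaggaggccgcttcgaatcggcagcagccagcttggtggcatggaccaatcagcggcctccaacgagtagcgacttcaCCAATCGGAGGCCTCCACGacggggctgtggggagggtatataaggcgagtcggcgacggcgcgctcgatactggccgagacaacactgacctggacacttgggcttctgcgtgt
Calr: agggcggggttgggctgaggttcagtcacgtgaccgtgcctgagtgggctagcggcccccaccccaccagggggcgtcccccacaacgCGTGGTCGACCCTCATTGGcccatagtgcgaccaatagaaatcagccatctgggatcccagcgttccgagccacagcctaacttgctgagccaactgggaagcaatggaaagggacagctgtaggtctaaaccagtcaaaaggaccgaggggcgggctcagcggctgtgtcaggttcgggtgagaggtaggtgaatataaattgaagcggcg
Ddit3: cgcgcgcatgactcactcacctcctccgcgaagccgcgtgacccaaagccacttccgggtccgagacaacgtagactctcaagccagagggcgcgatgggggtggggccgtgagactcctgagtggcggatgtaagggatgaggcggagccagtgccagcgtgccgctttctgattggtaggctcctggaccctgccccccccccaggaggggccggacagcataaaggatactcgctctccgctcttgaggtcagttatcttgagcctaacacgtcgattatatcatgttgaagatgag

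The ATF4 core was found in 8 members, namely Atf3, Nupr1, Trib3, Asns, Pycr1, Chac1, Vldlr and Herpud1, and in 3.97% of the 32851 windows of all genes. In Asns it began 23 bases before the start, in Herpud1 112, in Chac1 193, and in Trib3 14 bases after the start. The ER element was found in Hspa5 (65 bases before the start), Calr (162) and Hsp90b1, which held it at 212 and at 107 bases before the start, and in 0.119% of all windows. Its part CCACG alone, which each full element also contains, was in 24 members and in 32.8% of all windows. Herpud1 held CCACG at 122 and at 46 bases before the start, without the full element as searched. Other forms of an ER element were not searched, so a window without a match can still hold one. A match describes letters in a window and does not show binding, and these letters can lie outside the windows searched. Carriers of the ATF4 core did not share 1 pattern of levels: against untreated cells in MM401, Chac1 had a ratio of −1.73, Trib3 and Herpud1 of −0.73 each, Asns of −0.65, Nupr1 of −0.16, Pycr1 of −0.09, Vldlr of 0.02 and Atf3 of 0.12.

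**Figure D1:**
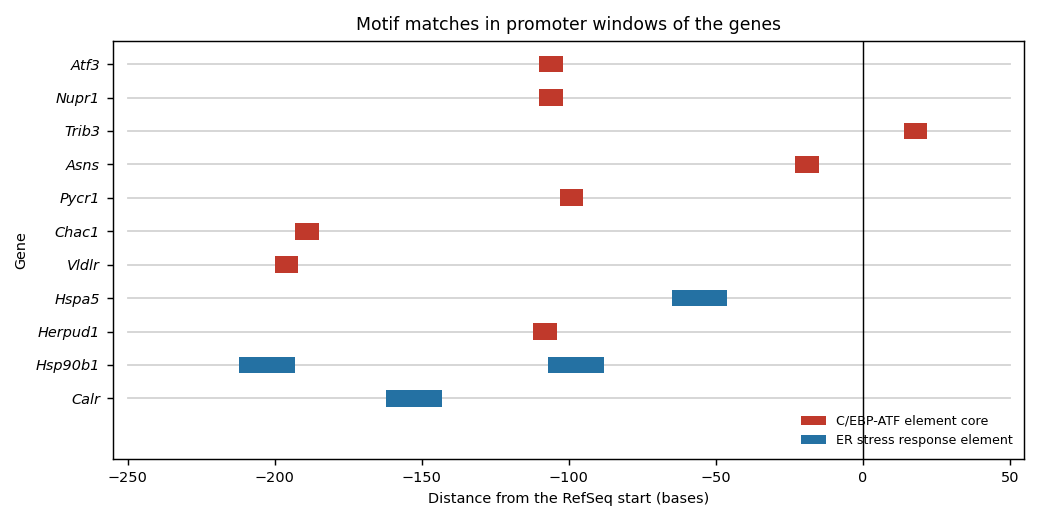
Positions of matches in the promoter windows of the 11 genes that hold one, drawn as distance in bases from the RefSeq start (vertical line), for the ATF4 core (red) and the ER stress response element (blue). The ATF4 core is in 8 members and the ER element, in the form searched, in 3. No member holds both in these forms, and other forms were not searched.

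Atf4 itself (chromosome 15, 80255122 to 80257602, mm10) was at 325 [273 to 377] in untreated cells. Its level was 192 [157 to 228] in MM401, 258 [210 to 305] in Mll1_deleted cells and 453 [380 to 526] in 2i. Untreated, MM401 and 2i had separate intervals, with MM401 lowest and 2i highest, and the Mll1_deleted interval overlapped the untreated one. No ratio to untreated passed the 2-fold rule (MM401 −0.75, Mll1_deleted −0.33 and 2i 0.48). MM401 was 2-fold lower than 2i with a ratio of −1.23 and separate intervals, a call that was lost in estimated counts (−0.98) and with the well-expressed loci centred on 0 (−0.96).

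Atf5, a related factor that like Atf4 is controlled by translation, had a wider span than Atf4. Its FPKM was 93.3 [57.8 to 129] in untreated, 31.2 [12.4 to 50.0] in MM401, 68.6 [36.6 to 101] in Mll1_deleted cells and 173 [108 to 238] in 2i. MM401 was lower than untreated by a ratio of −1.55 with separate intervals, and the 2i ratio of 0.88 did not pass. The Atf5 locus (chromosome 7, 44812256 to 44855421) also spans Akt1s1, Il4i1, Nup62 and Tbc1d17, so its reads may be shared. Trib3, a pseudokinase that binds ATF4 and restrains it (chromosome 2, 152337422 to 152344069), was at 59.3 [45.4 to 73.2], 35.4 [25.4 to 45.3], 50.5 [38.2 to 62.8] and 142 [110 to 174] in the order untreated, MM401, Mll1_deleted and 2i. It was the member with the largest ratio in 2i against untreated, at 1.24 with separate intervals.

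Ddit3, which encodes the pro-apoptotic factor CHOP, moved the other way in MM401 cells. Its FPKM was 41.2 [14.3 to 68.0] in untreated, 156 [104 to 207] in MM401, 36.6 [10.2 to 63.0] in Mll1_deleted cells and 57.8 [24.1 to 91.6] in 2i. The MM401 interval lay above the other 3, which overlapped each other. Against untreated cells the ratio in MM401 was 1.89, a 3.78-fold higher FPKM, and it was 2.03 in estimated counts. The locus (chromosome 10, 127289696 to 127311786) spans the tRNA synthetase gene Mars on the opposite strand, and the sources used here do not say if reads were counted by strand. Mars was listed separately at 99.9, 71.0, 116 and 166 in the same order of groups, lowest where Ddit3 was highest. Whether reads were shared between these genes was not tested.

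Among the other factors, Cebpb, a C/EBP factor that pairs with ATF4, was at 47.9 [35.8 to 60.0] in untreated, 81.6 [62.7 to 101] in MM401, 38.5 [28.2 to 48.8] in Mll1_deleted cells and 77.1 [58.9 to 95.3] in 2i. Its MM401 interval lay above the untreated one at a ratio of 0.76, which did not pass the 2-fold rule, and its locus also spans Tmem189 and Ube2v1. Nupr1, a stress-induced chromatin-associated protein, was at 118, 105, 70.3 and 185 in the same order. Its interval was below the untreated one in Mll1_deleted (−0.73) and above it in 2i (0.65). Atf3, a stress-induced factor downstream of ATF4, was between 8.40 in Mll1_deleted and 20.9 in 2i. Cebpg, the C/EBP partner of ATF4 in amino acid gene induction, had the smallest span of all members, from 15.4 in Mll1_deleted to 18.7 in 2i. Over the 8 factors and regulators, 8 were above 0 in 2i and 8 were below 0 in Mll1_deleted against untreated cells, but 1 passed the rule in 2i and 0 in Mll1_deleted. With estimated counts, or with the well-expressed loci centred on 0, 7 of the 8 were above 0 in 2i.

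**Figure D2:**
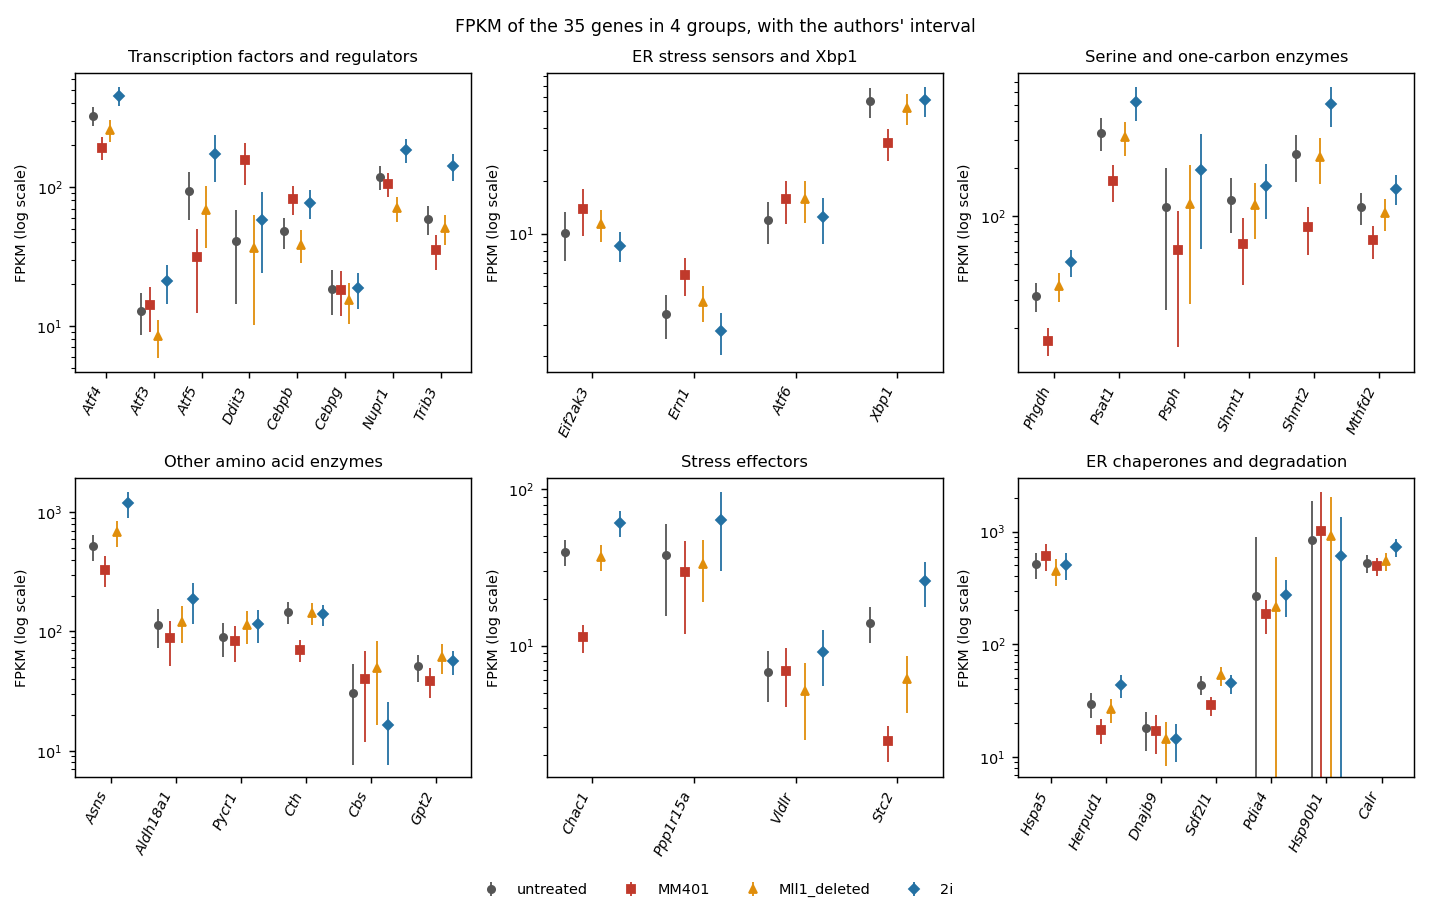
FPKM of the 35 members in the untreated, MM401, Mll1_deleted and 2i groups on log axes, by role, with lines for the authors' intervals, which are drawn to the axis edge where they reach 0. Serine enzymes sit lowest in MM401 and highest in 2i, and Ddit3 stands at 156 in MM401 against 41.2 in untreated cells.

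Enzymes that make serine lay on the same side of untreated cells as each other in MM401 and in 2i. Phgdh, which catalyses the first step (chromosome 3, 98313169 to 98339990), was at 31.7 [25.2 to 38.2] in untreated, 16.5 [13.2 to 19.8] in MM401, 36.4 [28.8 to 44.0] in Mll1_deleted cells and 51.5 [41.7 to 61.3] in 2i. MM401 was lowest and 2i highest, each with an interval separate from untreated, at ratios of −0.90 and 0.68. Psat1, the aminotransferase of the next step (chromosome 19, 15903721 to 15985035, in a locus that also names Cep78), was at 335 [257 to 412], 167 [124 to 210], 315 [240 to 390] and 525 [398 to 652] in the same order. Its FPKM in MM401 was 0.499 times that in untreated cells with separate intervals, and on the FPKM + 1 scale this fell just short of the rule. Psph, the phosphatase that ends the pathway, was at 114, 61.6, 119 and 195, with wide intervals that overlapped between all groups (untreated 25.8 to 202), in a locus that spans 4 other coding genes.

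Shmt2, the mitochondrial enzyme that passes the one-carbon unit of serine to folate (chromosome 10, 127514923 to 127522888), had the largest differences of the group. Its FPKM was 245 [165 to 325] in untreated, 86.2 [57.5 to 115] in MM401, 235 [159 to 311] in Mll1_deleted cells and 507 [365 to 649] in 2i. It was lower in MM401 at −1.49 and higher in 2i at 1.05, both with separate intervals, and MM401 differed from 2i by a ratio of −2.54, or 5.88-fold in FPKM. The call in 2i was lost in estimated counts (0.91) and with all compared loci centred on 0 (0.96). The Shmt2 locus also spans Ndufa4l2, which overlaps the gene itself, so its reads may be shared. The cytosolic counterpart Shmt1 was at 127, 67.2, 118 and 155, in a locus that also spans Smcr8 and Top3a. Mthfd2, a mitochondrial folate enzyme of embryonic and dividing cells, was at 115, 70.7, 105 and 149. All 6 of these enzymes were below 0 in MM401 and above 0 in 2i against untreated cells in FPKM, in estimated counts and under both centrings, with medians of −0.90 and 0.67. In Mll1_deleted their median was −0.07, with 0 of 6 past the rule.

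Enzymes of other amino acids did not move as a group. Asns, which makes asparagine (chromosome 6, 7675169 to 7693254), was at 519 [390 to 649] in untreated, 330 [234 to 425] in MM401, 680 [512 to 848] in Mll1_deleted cells and 1185 [892 to 1479] in 2i. Only the 2i interval was separate from the untreated one, at a ratio of 1.19, and MM401 differed from 2i by −1.84. Cth, the enzyme that releases cysteine from cystathionine, was at 145 [115 to 175], 70.2 [55.6 to 84.9], 143 and 140 in the order untreated, MM401, Mll1_deleted and 2i. Against untreated cells it was thus lower in MM401 alone, at −1.04 with separate intervals, and fell just short of the rule in estimated counts (−0.90).

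Cbs, which makes the cystathionine that Cth cleaves, went against the group, at 30.5 [7.66 to 53.3] in untreated, 40.3 in MM401, 49.4 [16.3 to 82.5] in Mll1_deleted cells and 16.5 [7.56 to 25.5] in 2i. It was lowest in 2i, with intervals that overlapped between all groups. The proline enzymes Aldh18a1 (114, 87.4, 121 and 186) and Pycr1 (89.4, 83.6, 113 and 116) and the alanine aminotransferase Gpt2 (51.1, 38.5, 61.5 and 56.1) had no ratio to untreated past the rule. The Pycr1 locus also names Mafg and Sirt7.

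Among the stress effectors, Chac1 and Stc2 were the members with the lowest ratios in MM401. Chac1, which breaks down glutathione (chromosome 2, 119351229 to 119354381), was at 39.8 [32.4 to 47.2] in untreated, 11.3 [9.02 to 13.5] in MM401, 37.2 [30.2 to 44.1] in Mll1_deleted cells and 61.0 [49.7 to 72.3] in 2i. Its MM401 interval lay below all others, at a ratio of −1.73 to untreated, and its 2i interval lay above all others. Stc2, a secreted glycoprotein (chromosome 11, 31357307 to 31370144), was at 14.0 [10.4 to 17.7] in untreated, 2.44 [1.81 to 3.07] in MM401, 6.13 [3.72 to 8.53] in Mll1_deleted cells and 26.1 [17.7 to 34.4] in 2i.

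Stc2 had the widest span of the 35, with 10.7-fold between 2i and MM401, and it was the 1 member called in Mll1_deleted against untreated (−1.08). In MM401 its ratio was −2.13. Both of these had separate intervals, while the 2i ratio of 0.85 did not pass and its interval touched the untreated one. Ppp1r15a, the phosphatase subunit that reverses eIF2 phosphorylation, was at 37.9, 29.4, 33.5 and 63.3 in the order untreated, MM401, Mll1_deleted and 2i, in a locus that spans Bax and 4 further coding genes. Vldlr, a lipoprotein receptor, was at 6.78, 6.86, 5.13 and 9.10. Neither had a ratio to untreated past the rule.

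None of the 11 ER stress sensors, chaperones and degradation genes passed the 2-fold rule against untreated cells in any group. Calls were also few among all compared loci, at 7.03% higher and 6.08% lower in MM401. The shares were 3.02% and 3.66% in Mll1_deleted, and 2.92% and 4.16% in 2i. With 11 genes the absence of calls does not set them apart from other loci. Hspa5, the main ER chaperone BiP (chromosome 2, 34771970 to 34799912), was at 512 [378 to 646] in untreated, 609 [450 to 768] in MM401, 448 [330 to 566] in Mll1_deleted cells and 508 [375 to 641] in 2i, with all intervals overlapping. The glucose-regulated chaperone Hsp90b1 was at 849, 1011, 921 and 601 in the same order, with intervals that reached 0 in every group. Calr, a lectin chaperone, was at 521, 493, 546 and 726, Dnajb9, a co-chaperone of BiP, at 18.2, 17.2, 14.6 and 14.5, and the disulfide isomerase Pdia4 at 267, 186, 215 and 272 with an untreated interval of 0 to 889.

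The 7 chaperone and degradation genes had medians of −0.08 in MM401, −0.15 in Mll1_deleted and 0.03 in 2i against untreated cells. The sign of the MM401 and 2i medians turned with scaling: in estimated counts they were 0.05 and −0.06. A pair of members, Herpud1, which serves ER-associated degradation, and Sdf2l1, a BiP-associated protein, had MM401 intervals below the untreated ones. Herpud1 was at 29.7 [22.5 to 36.9] in untreated, 17.6 [13.1 to 22.0] in MM401, 26.6 in Mll1_deleted cells and 43.6 [33.6 to 53.6] in 2i, and Sdf2l1 at 43.7 [35.5 to 52.0], 28.9 [23.3 to 34.5], 53.2 and 45.1.

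Of the sensors, the eIF2 kinase gene Eif2ak3 (PERK) was at 10.1, 13.9, 11.3 and 8.53, Ern1 (IRE1) at 3.47, 5.81, 4.09 and 2.77, and Atf6 at 12.0, 15.7, 15.7 and 12.4, in the order untreated, MM401, Mll1_deleted and 2i. These 3 were above 0 in MM401, and the median with Xbp1 included was 0.39 there and 0.16 in Mll1_deleted. Xbp1, the target that IRE1 splices, was at 57.0 [45.6 to 68.4], 33.0 [26.0 to 39.9], 52.3 and 57.7, lowest in MM401 at −0.77 with separate intervals. The total FPKM does not show splicing, so the active form of Xbp1 was not measured.

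Against untreated cells, MM401 had 5 members lower, namely Stc2, Chac1, Atf5, Shmt2 and Cth, all with separate intervals. That is 14.3% of the 35, while 6.08% of all compared loci were lower. Ddit3 was the 1 member higher (7.03% of all loci). MM401 intervals lay wholly below the untreated ones for 13 members, or 37.1%, against 9.75% of all loci, and wholly above for 2, Ddit3 and Cebpb, against 9.36%. The median ratio of the members was −0.40, with 25 of 35 below 0, and the median of all compared loci was −0.04. Among loci with an FPKM of at least 10, a limit added after the data were seen because 33 members reach it, 6.24% were lower, 11.7% had intervals wholly below, and the median was −0.14. For the 24 members whose locus spans no other coding gene, a set also formed after the data were seen, 3 were lower, 0 higher, and the median was −0.46. Cell type markers moved in this comparison too: 4 of 10 ES cell markers were lower, all with separate intervals, while 3 were above 0. Of the fibroblast markers, 14 of 14 were above 0, with 2 of them higher. Their part in the differences of the members was not tested.

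In Mll1_deleted against untreated cells Stc2 was the 1 member lower, or 2.86% (3.66% of all loci), and 0 members were higher (3.02% of all loci), shares near or below those of all loci. Intervals lay wholly below the untreated ones for 2 members, Stc2 and Nupr1, or 5.71%, against 4.02% of all loci. The median of the members was −0.11, against 0.05 for all loci. None of the 14 fibroblast markers passed the rule, and 11 of them were below 0. Both MLL1 groups were compared with the same untreated column, so their ratios share that value.

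In 2i cells 3 members were higher than in untreated cells, namely Trib3, Asns and Shmt2, and 0 were lower. These are 8.57% of the members against 2.92% of all loci, and 4.16% of all loci were lower. Intervals lay wholly above the untreated ones for 7 members, or 20.0%, against 5.93% of all loci. The median was 0.48, with 28 of 35 above 0, while all loci had a median of 0.08 and loci with an FPKM of at least 10 a median of 0.17. With those loci centred on 0, 22 of 35 were above 0. The summed fibroblast marker level was also highest in the 2i group, at 4691 against 2166 in untreated cells. Of the 14 fibroblast markers 5 were higher in 2i, 4 of them with separate intervals, and of the 10 ES cell markers 0 passed the rule. The part of these marker differences in the ratios was not tested.

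**Figure D3:**
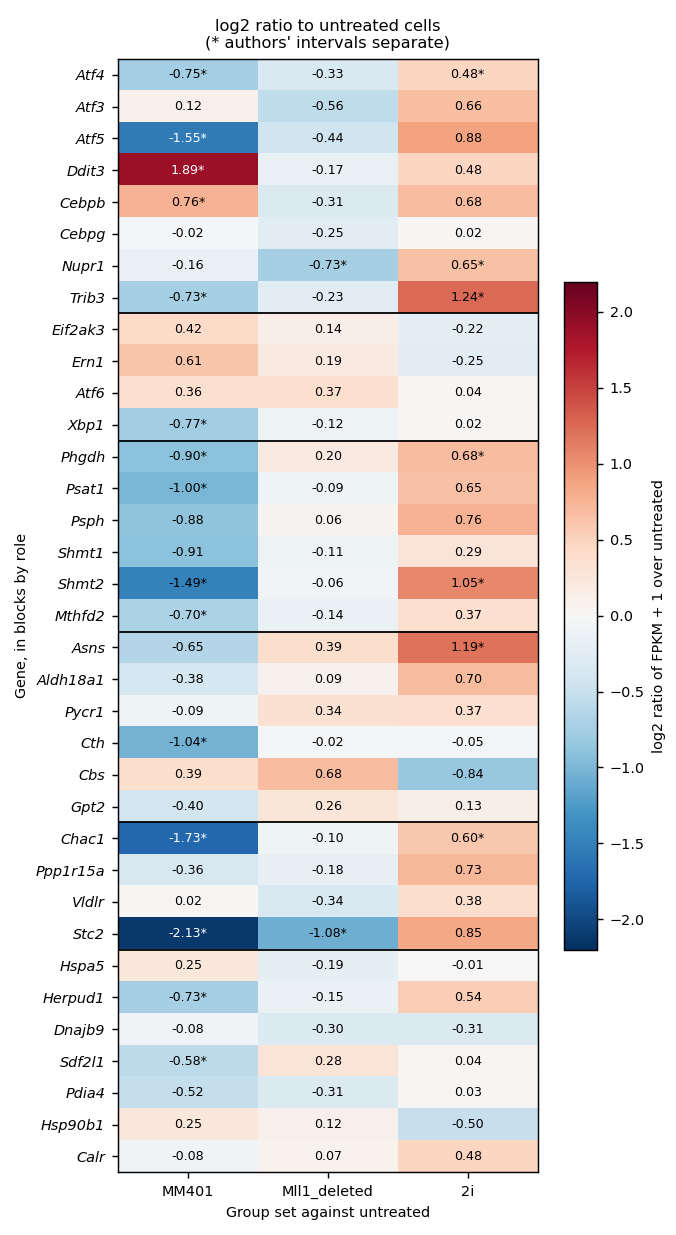
Heat map of log2 ratios of FPKM + 1 for the 35 members (rows, in blocks by role) in MM401, Mll1_deleted and 2i cells (columns) over untreated cells, with red for higher, blue for lower and a star where the authors' intervals were separate. In MM401 Ddit3 lies at 1.89 and Stc2 at −2.13, and in Mll1_deleted cells Stc2 is the 1 gene past the rule.

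Treated groups were also set against each other, which needs no untreated value. MM401 against 2i gave the largest number of calls, with 15 members lower, or 42.9%, against 11.1% of all loci, and 2 members higher against 10.4%. Of the 15, 11 had separate intervals, and Psph, Shmt1, Aldh18a1 and Ppp1r15a had overlapping ones. The lower members included all 6 serine and one-carbon enzymes, led by Shmt2 (−2.54), of which 4 had separate intervals, together with Stc2 (−2.97), Atf5 (−2.43), Chac1 (−2.34), Trib3 (−1.97) and Asns (−1.84). The higher members were Ddit3 at 1.41 with separate intervals and Cbs at 1.24 with overlapping ones. Intervals were wholly below for 16 members, or 45.7%, against 16.3% of all loci. The median was −0.79 against −0.08 for all loci. Among loci with an FPKM of at least 10 the share lower was 14.1%, the share with intervals wholly below 21.5% and the median −0.28. With that median set to 0 there were 9 members lower and 4 higher. The members lost there were Atf4, Shmt1, Mthfd2, Aldh18a1, Ppp1r15a and Herpud1, with ratios between −0.79 and −0.99. Of the ES cell markers 4 of 10 were lower in MM401 than in 2i, and of the fibroblast markers 3 of 14, and their part was not tested.

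MM401 against Mll1_deleted set the inhibitor beside the gene deletion, both in serum medium. There were 7 members lower, or 20.0%, against 5.03% of all loci, namely Chac1 (−1.64), Shmt2 (−1.44), Atf5 (−1.11), Phgdh (−1.10), Stc2 (−1.05), Asns (−1.04) and Cth (−1.01), all but Atf5 with separate intervals. Higher in MM401 were 2 members, Ddit3 (2.06) and Cebpb (1.07), both with separate intervals, against 5.51% of all loci. Cell type markers differed between these groups as well, with 7 of 14 fibroblast markers higher in MM401 (list median 0.98) and 4 of 10 ES cell markers lower, among them Tdgf1 (−2.10) and Pou5f1 (−1.78), and their part in the differences of the members was not tested. Of the lower members, Chac1 and Shmt2 kept the call in estimated counts, while the other 5 lay between −0.81 and −0.98. Mll1_deleted against 2i had 6 members lower, or 17.1%, against 5.18% of all loci, namely Stc2 (−1.92), Trib3 (−1.47), Nupr1 (−1.39), Atf5 (−1.32), Atf3 (−1.22) and Shmt2 (−1.11), all with separate intervals, and Cbs higher at 1.52 with overlapping ones against 5.96% of all loci. In that comparison 8 of 14 fibroblast markers were lower in Mll1_deleted cells, and their part was not tested. Both comparisons with 2i share the 2i column.

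**Figure D4:**
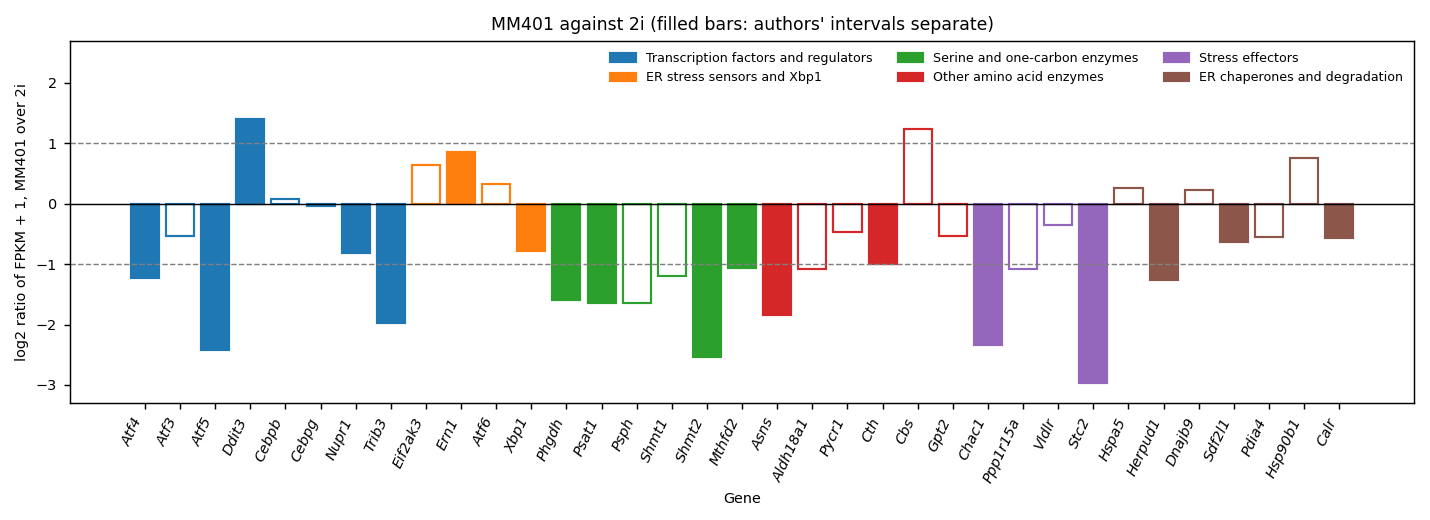
Log2 ratio of FPKM + 1 in MM401 over 2i for each of the 35 members, ordered and coloured by role, with dashed lines at the 2-fold rule and filled bars where the authors' intervals were separate. The values run from Stc2 at −2.97 to Ddit3 at 1.41, with 15 at or below −1.

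Over the 4 groups, 19 of the 35 members were lowest in MM401 and highest in 2i, while 22.7% of 17439 loci with an FPKM of at least 1 in any group had that order. MM401 held the lowest value for 22 members (37.2% of loci), and 2i the highest for 23 (35.2% of loci). Shares of these orders were not computed for loci with an FPKM of at least 10, the level of most members. The reverse order, highest in MM401 and lowest in 2i, was that of Eif2ak3, Ern1 and Hsp90b1 (14.4% of loci), whose intervals between MM401 and 2i were separate for Ern1 alone. Many of these orders rest on neighbouring values with overlapping intervals. Examples are 2i and untreated for Xbp1 (57.7 and 57.0) and Pdia4 (272 and 267), and 2i and Mll1_deleted for Pycr1 (116 and 113).

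Other genes of the same pathways were described from lists that were not part of the set. These lists too were chosen with earlier results of these data known, so they are no independent check on the members. All 12 tRNA synthetase genes known as ATF4 targets were below 0 in MM401, with a median of −0.68 and 1 past the rule, Lars (114 to 49.0, −1.20 with separate intervals). Sars (330 to 168) followed at −0.97. In 2i their median was 0.56 with 0 past the rule, led by Aars (342 to 621, 0.86, in a locus that also names Exosc6) and Wars (63.1 to 111, 0.81). The 8 synthetase genes not among those targets were also all below 0 in MM401, with a median of −0.54 and Vars past the rule at −1.07 with overlapping intervals. Their median in 2i was 0.23. In MM401 against 2i, 7 of 12 target and 4 of 8 other synthetases were lower, with medians of −1.19 and −0.85, while 11.1% of all loci were lower, or 14.1% of loci with an FPKM of at least 10. In Mll1_deleted both lists had a median of −0.01.

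The further ATF4 targets split in MM401 cells. Of 13 compared, 2 were higher and 2 lower, with a median of −0.05 that turned to 0.18 in estimated counts. The higher genes encode the secreted stress hormones Fgf21 (1.38 to 6.27, ratio 1.61) and Gdf15 (7.16 to 18.5, 1.26). The lower ones were Pck2, the mitochondrial phosphoenolpyruvate carboxykinase (62.5 to 27.5), and Adm2, a peptide hormone gene (4.52 to 1.71). All 4 had separate intervals. In 2i cells 12 of 14 compared were above 0 and 2 below, with a median of 0.53. Intervals lay wholly above the untreated ones for 6 of them, or 42.9%, against 5.93% of all loci. Gdf15 was the 1 gene past the rule there (16.4, ratio 1.10 with separate intervals), and Pck2 stood at 124 with a ratio of 0.98. In Mll1_deleted cells 0 of 13 passed. Gdf15 was thus raised in MM401 and in 2i, while Pck2 was lowest in MM401 and highest in 2i.

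The eIF2 kinases, eIF2 subunits and eIF2B subunits had 0 of 13 past the rule against untreated cells in every group, with medians of −0.25 in MM401, −0.01 in Mll1_deleted and 0.11 in 2i. Subunits of eIF2B, the exchange factor that phosphorylated eIF2 blocks, led the list. Eif2b2 went from 103 to 54.4 (−0.90) and Eif2b1 from 76.7 to 44.8 (−0.76) in MM401, both with separate intervals. Eif2b5 went from 52.9 to 100 (0.91) in 2i cells, also with separate intervals.

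Of 16 further folate and glycine enzymes, 2 were lower in MM401. These were Mthfd1l, the mitochondrial formate-producing enzyme (47.8 to 8.94, −2.30), and Tyms, thymidylate synthase (65.4 to 22.3, −1.51), both with separate intervals. Aldh1l1, a folate dehydrogenase in a locus that also names Gm45901, was the 1 gene higher in MM401 (6.07 to 13.2, 1.01 with separate intervals) and in Mll1_deleted (13.3, ratio 1.02 with overlapping intervals). Gldc, the glycine cleavage enzyme, had a ratio of 0.76 in Mll1_deleted with separate intervals. In 2i cells 0 of 16 passed, with a median of 0.20.

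Of 15 enzymes listed around methionine, cysteine and glutathione, 11 were below 0 in MM401 against untreated cells, with a median of −0.30. Gss, glutathione synthetase, was the 1 gene higher there (23.8 to 58.7, 1.27), with separate intervals. Gclc, which makes the glutathione precursor, was at 63.6 in MM401 and 20.5 in 2i, with a ratio between them of 1.59. Chac1, whose product degrades glutathione, was at 11.3 and 61.0 in the same groups.

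The 26 further ER chaperone and degradation genes had 1 higher and 0 lower in MM401, with a median of −0.04. The higher gene was Ero1lb, an ER oxidase (1.92 to 6.26, 1.31 with separate intervals). In Mll1_deleted and in 2i cells 0 of 26 passed, with medians of −0.03 and 0.23. Of 8 mitochondrial chaperones and proteases 0 passed in any group against untreated, with the protease subunit Clpp at −0.80 in MM401. Of 9 cytosolic heat shock genes compared in MM401, Hspa8 (410 to 156, −1.39, overlapping intervals, in a locus with small RNA genes) and Hsph1 (127 to 60.4, −1.06, overlapping intervals) were lower. Hspa1a (0.409 to 2.05, 1.11) and Hspa1b (1.16 to 3.43, 1.04) were higher with separate intervals, both at low levels, and these copies are nearly identical, so their reads may be shared.

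**Figure D5:**
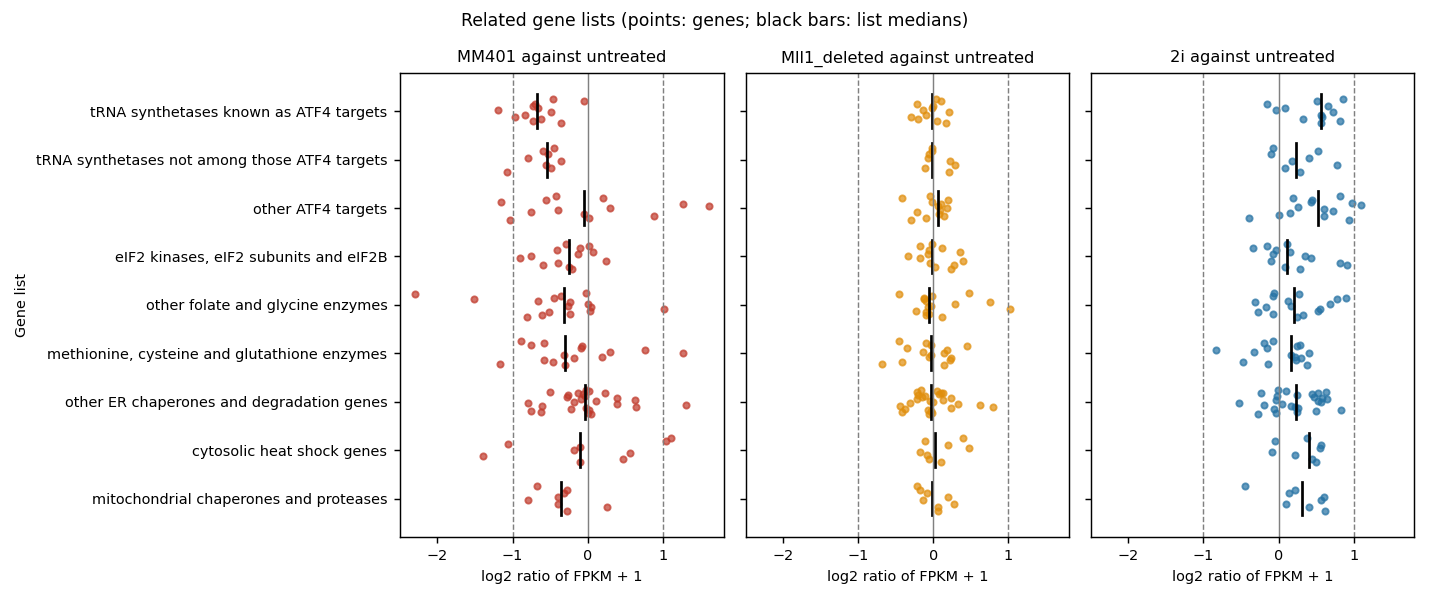
Log2 ratios of FPKM + 1 over untreated cells for the genes of 9 further lists in MM401, Mll1_deleted and 2i cells, with a point per gene, a black bar at each list median and dashed lines at the 2-fold rule. The tRNA synthetases known as ATF4 targets have a median of −0.68 in MM401 and 0.56 in 2i, and all 12 lie below 0 in MM401.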

How the data were processed

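RNA sequencing of 4 groups with 2 libraries each was analysed from the authors' processed tables. Tools listed in the submitters' processing notes, with no role, are deepTools, SAMtools 1.5 and TopHat2 2.1.1, and the build listed is mm10. Which program wrote the tables is not stated there. FPKM values were deposited with a pair of limits for each group, per the file headers, and these limits are used as the authors' interval. Estimated counts, which need not be whole, were deposited in a table of the same loci, per the file headers. Each table holds 1 column per group, so the authors had combined the libraries, and no test could be made.

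Log2 ratios were computed from FPKM with a pseudocount of 1 in Python 3.11.15 (pandas 2.3.3, NumPy 2.4.6), for loci with an FPKM of at least 1 in either group. The rule for calls was a log2 ratio of at least 1 in size. Intervals that do not contain their own value never counted as separate. Values with the status HIDATA were treated as missing, and this touched no member. The ratios understate differences of low loci. Coordinates are mm10, counted from 1. The code was tested on simulated data.

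Of the members, 6 lie in loci that join several gene names and 11 in loci that span another coding gene. All members are named, and of each further list the 2 genes with the largest ratio in a comparison. Further list genes, where a count of 5 or fewer is broken down, were chosen after their values were seen. The members and the lists were chosen with earlier results of these data known. Of the listed genes, Slc7a5 was not analysed here. A result of the further lists that this rule would name is not reported here. Alternatives were another pseudocount, other FPKM minimums, estimated counts scaled to each group's total with a pseudocount of 10, and centring. Centring on loci with an FPKM of at least 10 and the subset of 24 members were added after the data were seen. Interval widths of the authors, not replicate spread, give the only precision here.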

Additional observations from a re-analysis of the deposited data

How the results depend on the processing

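No paired analysis was possible because each table holds 1 combined column per group and the columns carry no replicate number. For the same reason leaving out each replicate was not possible. Of the 43 calls of a member in a comparison, all 43 were kept with a pseudocount of 0.1, with no filter on low values and with an FPKM minimum of 5. With all compared loci centred on 0, 6 calls were lost, and MM401 against Mll1_deleted had 4 members lower in place of 7. Estimated counts lost 11. There the medians were 0.33 for 2i against untreated, −0.23 for MM401 against Mll1_deleted (with 2 members lower) and −0.64 for MM401 against 2i. With loci of an FPKM of at least 10 centred on 0, chosen after the data were seen, 13 calls were lost. The medians were then −0.26 for MM401 against untreated, 0.31 for 2i against untreated (with 1 member, namely Cbs, lower), −0.24 for MM401 against Mll1_deleted (with 2 lower) and −0.51 for MM401 against 2i (with 4 higher and 9 lower). No value turned its direction among these calls. The cause of these shifts was not tested. Depth is known only per group, and the authors' intervals reach 0 for Hsp90b1 in every group, so differences of that gene were not detectable.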
